A study of Mus musculus with 16 samples.

Results

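The natriuretic peptide system was described in hearts of mice that lack MuRF1, MuRF2 or both, through 8 genes: the peptide genes Nppa, Nppb and Nppc, the processing enzyme genes Corin and Furin, and the receptor genes Npr1, Npr2 and Npr3. The members were all probes to which the array files give 1 of these gene names, 14 probes of 41174, whose names stand for 27670 genes in all. Nppa encodes atrial natriuretic peptide (ANP), Nppb encodes B-type natriuretic peptide (BNP) and Nppc encodes C-type natriuretic peptide (CNP). MuRF1 and MuRF2 are muscle ring finger proteins of striated muscle, encoded by Trim63 and Trim55.

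ANP and BNP are hormones that heart muscle releases when its walls are stretched, and they lower blood pressure and blood volume. Both are made as longer precursors that are cut by proteases, ANP's mainly by corin on the surface of heart muscle cells and BNP's by furin or corin. They act through the receptor encoded by Npr1, which makes the second messenger cGMP, while CNP acts through the receptor encoded by Npr2, and the receptor encoded by Npr3 takes all 3 peptides up and clears them. In adult mice Nppa and Nppb are made mainly in the atria, and a stressed ventricle turns both genes on, so that they are widely read as markers of cardiac stress.

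The hearts came from 4 groups of strain-matched mice 12 weeks old, with 4 biological replicates each and 1 replicate per array. The groups were null for both genes (MuRF1 -/- MuRF2 -/-, called double null), or MuRF1 null MuRF2 het (MuRF1 -/- MuRF2 +/-), MuRF1 het MuRF2 null (MuRF1 +/- MuRF2 -/-) and wild type for both genes. Values are given as log2 ratios, with the heart in the Cy5 channel and, in the Cy3 channel, a common reference of RNA pooled from whole newborn C57BL/6 pups. The ratio of 1 probe can be set against its ratio in another group, but not against another probe's ratio as a level. The labels speak of hearts and name no chamber, and fewer cells of a type and less RNA per cell cannot be told apart in such samples.

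Trim63, the MuRF1 gene, lay between -1.04 and -0.39 in double null hearts, between -0.85 and -0.34 in MuRF1 null MuRF2 het hearts, between 1.70 and 2.13 in MuRF1 het MuRF2 null hearts and between 2.51 and 2.71 in wild type hearts. The Trim55 probe was well above background on all 16 arrays and was no lower in the MuRF2 null groups, with means of -1.35 in double null hearts, -1.03 in MuRF1 null MuRF2 het hearts, -1.28 in MuRF1 het MuRF2 null and -1.73 in wild type hearts. The labels do not tell whether it lies in the deleted part of the gene, and therefore it checks nothing about the MuRF2 labels. The arrays differed in brightness: Cy5 signal was well above background for 6037 to 14503 probes in double null hearts, 6402 to 15067 in MuRF1 null MuRF2 het hearts, 16129 to 17391 in MuRF1 het MuRF2 null hearts and 15171 to 16664 in wild type hearts. Slides 1 and 3 each held 2 double null and 2 wild type arrays, whereas all MuRF1 null MuRF2 het arrays were on slide 2 and all MuRF1 het MuRF2 null arrays on slide 4, where slide and genotype cannot be told apart. Cardiomyocyte markers marked every group as heart: the mean ratio of 7 such genes lay between 3.19 and 3.79 on all 16 arrays.

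The probes that carry the findings on the peptides are shown first, 5′ to 3′ as the array files list them. The Nppa probe spans 163 bases of chromosome 4 in the coordinates of the files with its 60 bases, so it crosses an exon junction. In the Nppb probe, also on chromosome 4, capitals mark 4 codons that begin and end with an arginine codon (CGN, AGA or AGG) in a forward frame without a stop, the spacing that furin-like proteases recognise in their substrates. That codon pattern occurs in 6.03% of the 41174 probes of the array. A match is a description and by itself does not tell whether the protein is cut there.
Nppa probe A_51_P361340: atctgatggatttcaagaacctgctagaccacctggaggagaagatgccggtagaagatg
Nppb probe A_51_P426195: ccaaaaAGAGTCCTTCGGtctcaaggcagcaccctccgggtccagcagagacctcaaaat

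Nppa rose in double null hearts and passed the test in no other comparison with wild type. It was measured by 2 probes with 10 spots each on every array. Probe A_51_P361340 read 4.84, 5.42, 5.75 and 5.90 in double null hearts, 1.57, 2.79, 2.13 and 2.31 in MuRF1 null MuRF2 het hearts, 2.53, 2.58, 4.04 and 2.54 in MuRF1 het MuRF2 null hearts, and 2.02, 2.10, 1.77 and 1.89 in wild type hearts. All 4 double null hearts lay above all 12 others, and 1 MuRF1 het MuRF2 null heart stood between them and the rest. The raw Cy5 intensity of its spots was 33754 to 43452 on the array of double null 3 and 14540 to 19842 on that of double null 4, against 421 to 604 on the array of wild type 3 and 396 to 592 on that of wild type 4, which share slide 3 with them. On slide 1 it was 4107 to 6506 for double null 1 and 993 to 1350 for double null 2, the dimmest array, against 395 to 621 for wild type 1 and 581 to 812 for wild type 2.

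The second probe, A_52_P580582, is the brighter and therefore stood for the gene in the test across genes. It read 4.63, 6.62, 4.40 and 5.18 in double null hearts, 2.66, 3.06, 2.74 and 2.75 in MuRF1 null MuRF2 het hearts, 2.94, 2.85, 4.03 and 2.92 in MuRF1 het MuRF2 null hearts, and 2.43, 2.41, 2.08 and 2.30 in wild type hearts. Both probes thus put the same 4 hearts highest, but they ordered those 4 differently. All 10 of its spots were saturated on the array of double null 3, where the raw intensity was at least 64168, and none was on any other array, so its value in that heart is too low to an unknown extent. The other Nppa probe had no saturated spot among its 160. Spots of 1 probe on 1 array varied little, with standard deviations of 0.0421 to 0.206 for A_52_P580582 and 0.0391 to 0.115 for A_51_P361340.

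**Figure D1:**
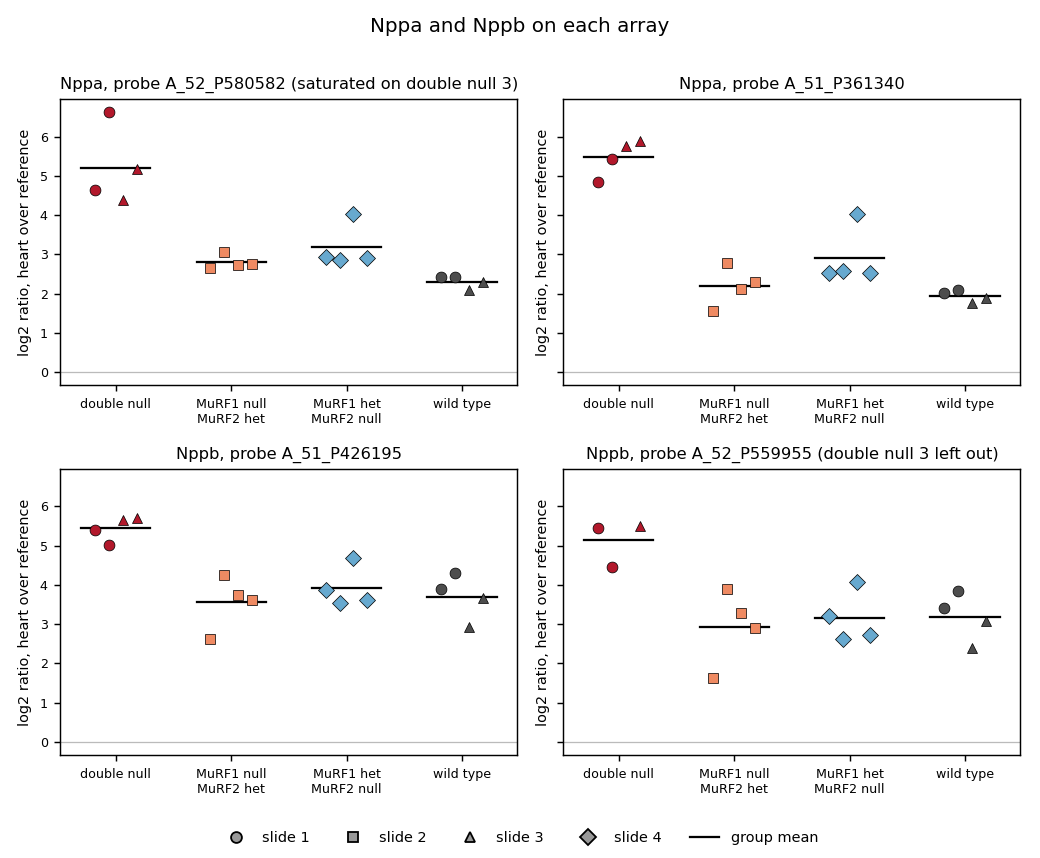
Log2 ratio of heart to reference for both probes of Nppa and both probes of Nppb on each array, by genotype, with 1 point per heart, marker shape for the slide and a bar for the group mean. All 4 panels place the double null hearts above every other heart of the plot, and MuRF1 het MuRF2 null 3 is the highest heart outside that group in each panel.

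Nppa was 2.90 ± 0.36 log2 units higher in double null than in wild type hearts by probe A_52_P580582 (means 5.21 ± 1.00 and 2.31 ± 0.16, SD, n = 4 each; limma, adjusted p = 0.000187), a 7.47-fold rise that the saturated array holds down. By the unsaturated probe the rise was 3.54 ± 0.32, or 11.6-fold (adjusted p = 1.92e-05 among all probes). Within slide 1 the unsaturated probe differed by 3.07 and within slide 3 by 4.00, and A_52_P580582 by 3.20 and 2.60. With the 4 arrays of slide 1 alone no gene passed after adjustment (limma, 2628 genes with an unadjusted p under 0.05), Nppa included (adjusted p = 0.138). With each array centred on its median in place of loess, the difference by A_52_P580582 was 1.89 (adjusted p = 0.00959), where the median of all genes itself shifted by -0.50.

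With 1 functional allele left, either of MuRF1 or of MuRF2, Nppa was nearer to wild type. It was 0.49 ± 0.36 above wild type in MuRF1 null MuRF2 het hearts (adjusted p = 0.416), but 0.25 by the unsaturated probe, where the hearts overlapped, and -0.73 with median centring. It was 0.88 ± 0.36 above wild type in MuRF1 het MuRF2 null hearts (adjusted p = 0.235). The unsaturated probe gave 0.98 ± 0.32 there (limma, adjusted p = 0.133 among all probes), with every heart above every wild type heart. Over 23 alternatives the difference was 0.47 to 1.28 (limma, adjusted p 0.0053 to 0.524). Without MuRF1 het MuRF2 null 3 the difference of that group from wild type was 0.60, and with array brightness as a covariate it was 1.28 and passed (adjusted p = 0.0484). Set directly against these groups, double null hearts were higher by 2.41 ± 0.36 than MuRF1 null MuRF2 het hearts (adjusted p = 0.0114) and by 2.02 ± 0.36 than MuRF1 het MuRF2 null hearts (adjusted p = 0.00143). The unsaturated probe gave 3.28 and 2.56 for these 2 comparisons. The first call was lost without MuRF1 null MuRF2 het 3 or 4 or double null 4 (adjusted p up to 0.0582), and the second was lost with array brightness as a covariate (difference 1.21, adjusted p = 0.236). Neither passed with median centring (2.62 and 1.42, adjusted p = 1 and 0.096).

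Nppb rose in double null hearts by less than Nppa, and its wild type level varied more between hearts. Probe A_51_P426195 read 5.40, 5.01, 5.65 and 5.70 in double null hearts, 2.63, 4.24, 3.75 and 3.62 in MuRF1 null MuRF2 het hearts, 3.87, 3.55, 4.67 and 3.62 in MuRF1 het MuRF2 null hearts, and 3.90, 4.30, 2.93 and 3.66 in wild type hearts. The double null hearts all lay above the other 12, whose 3 groups overlapped. The second probe, A_52_P559955, read 5.46, 4.45 and 5.51 in double null hearts 1, 2 and 4, with its spot on double null 3 left out by its quality flag, against 3.42, 3.83, 2.39 and 3.08 in wild type hearts.

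The difference between double null and wild type hearts was 1.74 ± 0.33 for probe A_51_P426195, a 3.35-fold rise (means 5.44 ± 0.32 and 3.70 ± 0.58, SD, n = 4 each; adjusted p = 0.00267). For the second probe it was 1.96 ± 0.48 (adjusted p = 0.0125). Double null hearts also exceeded MuRF1 null MuRF2 het hearts by 1.88 ± 0.33 (adjusted p = 0.0261) and MuRF1 het MuRF2 null hearts by 1.51 ± 0.33 (adjusted p = 0.0048). Against wild type, Nppb differed by -0.14 in MuRF1 null MuRF2 het hearts (adjusted p = 0.823) and by 0.23 in MuRF1 het MuRF2 null hearts (adjusted p = 0.808). The call against MuRF1 null MuRF2 het hearts was lost without MuRF1 null MuRF2 het 3 or 4 or double null 3 or 4 (adjusted p 0.0871 to 0.131), and A_52_P559955 did not pass there (2.21, adjusted p = 0.0882). The rise over wild type was 1.10 within slide 1 and 2.38 within slide 3. With arrays centred on their medians it did not pass (0.93, adjusted p = 0.148), nor did the difference from MuRF1 null MuRF2 het hearts (1.77, adjusted p = 1) or from MuRF1 het MuRF2 null hearts (1.14, adjusted p = 0.2).

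**Figure D2:**
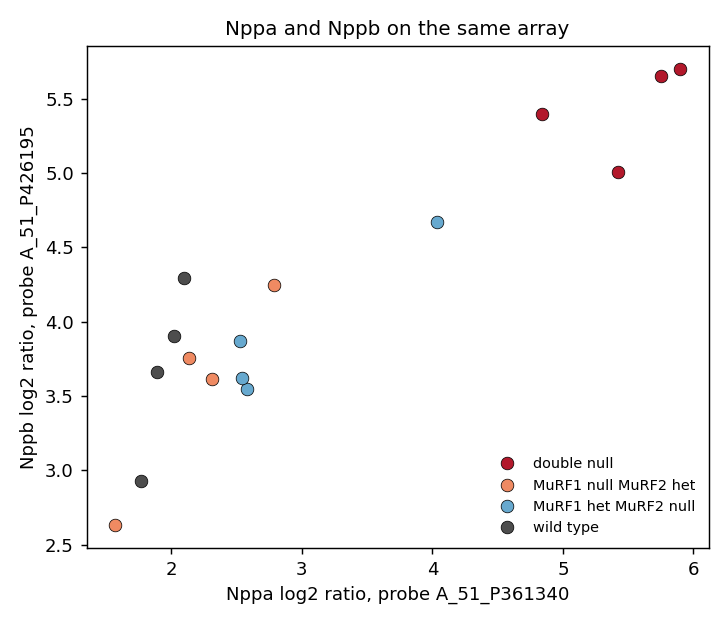
Nppb log2 ratio (vertical) against Nppa log2 ratio (horizontal) on the same array, each by its probe without saturated spots, coloured by genotype with 1 point per heart. The 4 double null hearts form the upper right corner, with Nppb at 5.01 or more and Nppa at 4.84 or more, and MuRF1 het MuRF2 null 3 is nearest to them at 4.04 and 4.67.

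Over the 16 arrays the ratios of Nppa, by its unsaturated probe, and Nppb had a Pearson correlation of 0.92, and 0.74 over the 12 hearts that were not double null. By A_52_P580582, whose value in double null 3 is saturated, these were 0.79 and 0.59. Each pair of values shares an array and its normalization, so these are descriptions. The heart MuRF1 het MuRF2 null 3 was high for both genes: Nppa was 1.11 and 1.50 above the median of the other 3 hearts of its group by the 2 probes, and Nppb was 1.05 and 1.35 above it. Npr2, Npr3, Corin and Furin in that heart lay within 0.25 of that median by the probes that stood for each gene.

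Nppc could not be measured. Its 1 probe was well above background on 0 of 16 arrays, with ratios between -0.23 and 0.16, and it was not tested. In the channel of the newborn reference that probe was well above background on 1 of 16 arrays, so the lack of signal was not limited to heart. Nppc is transcribed mainly in brain, cartilage and the lining of vessels. The probe, on chromosome 1, covers the end of the coding part; its capitals mark the first and the last cysteine codon of a stretch of 17 codons, and the stop codon follows. Those cysteines close the ring that the natriuretic peptides have in common.
Nppc probe A_51_P401894, to its stop codon: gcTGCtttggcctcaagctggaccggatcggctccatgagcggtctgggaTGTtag

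Of the 6 members that passed the filter on low signal (well above background on at least 4 arrays), 5 passed the test between double null and wild type hearts, 2 higher and 3 lower. Of all 12331 genes tested, 22.3% passed in this comparison, 10.3% higher and 12% lower. In the comparison of double null with MuRF1 null MuRF2 het hearts 2 of 6 members passed, both higher, beside 0.349% of all genes, 0.162% higher and 0.187% lower. With MuRF1 het MuRF2 null hearts 3 of 6 passed, 2 higher and 1 lower, beside 26.4% of all genes, 13.7% higher and 12.7% lower. In MuRF1 null MuRF2 het hearts, set against MuRF1 het MuRF2 null hearts, 1 of 6 was lower, beside 8.53% of genes in either direction, 4.59% higher and 3.94% lower. None of the 6 passed in MuRF1 null MuRF2 het hearts against wild type, where 1.03% of all genes did (0.316% higher, 0.714% lower), nor in MuRF1 het MuRF2 null hearts against wild type, where 2% did (0.665% higher, 1.34% lower). In those last 2 comparisons the unadjusted p was under 0.05 for 2852 and 2003 genes. A member that missed the filter has no test, so nothing follows for Nppc and Npr1.

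Over all member probes that passed the filter, 9 of 14, the calls were 8 of 9 in double null against wild type hearts, where 20.8% of all 16810 probes passed, Npr3 being the exception. Among the 8, Npr2 probe A_52_P489373, was well above background on 1 of 4 double null arrays. The calls were 3 of 9 in double null against MuRF1 null MuRF2 het hearts (0.244% of all probes), 5 of 9 against MuRF1 het MuRF2 null hearts (25.4%), and 1 of 9, that of Corin, in the comparison of those other groups with each other (8.59%). Against wild type 0 of 9 passed in MuRF1 null MuRF2 het hearts (1.15%) and 0 of 9 in MuRF1 het MuRF2 null hearts (1.68%). The hearts of both groups did not overlap for 4 of 6 members in double null against wild type (25.5% of all genes), for Nppa alone, and by A_52_P580582 only, in MuRF1 null MuRF2 het against wild type (12.7%), and for Nppa, Npr2 and Corin in MuRF1 het MuRF2 null against wild type (20.7%). They did not overlap for Nppa and Nppb in double null against MuRF1 null MuRF2 het (2.89%), for these and Corin in double null against MuRF1 het MuRF2 null (28.9%), and for Corin in MuRF1 null MuRF2 het against MuRF1 het MuRF2 null (20.1%). Without the 2 dimmest arrays, an alternative chosen after seeing the data, the differences between MuRF1 het MuRF2 null and wild type hearts passed for Nppa (0.88, adjusted p = 0.0229) and Corin (0.60, adjusted p = 0.00792). The arrays left out belong to neither of these groups. The differences are therefore those of the main fit, and only the spread shared by all groups in the test changed.

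**Figure D3:**
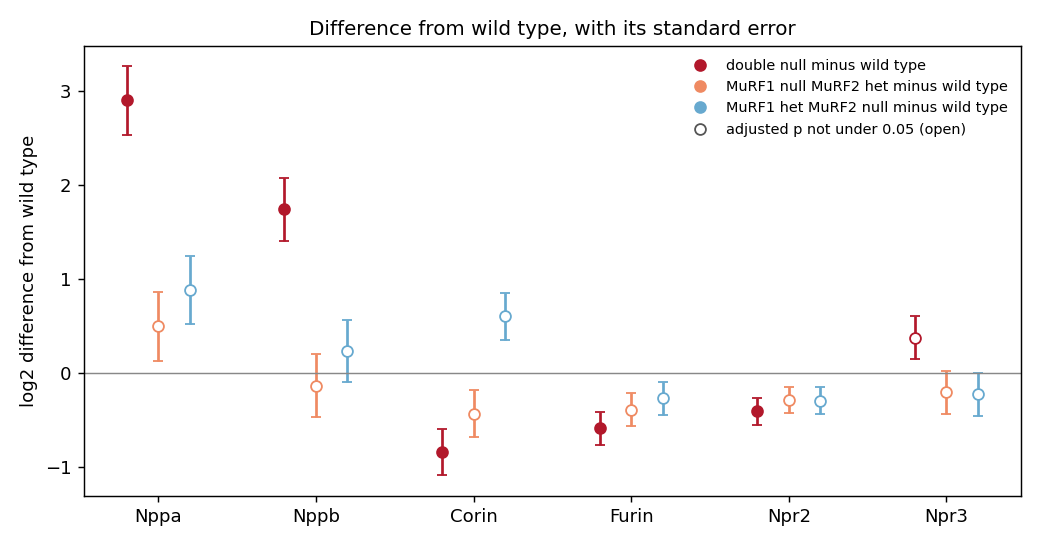
Log2 difference from wild type with its standard error for the 6 members that passed the filter, for the double null group and then both groups with 1 allele left, by the probe that stood for each gene. Filled points had an adjusted p under 0.05, and all 5 of them belong to double null hearts: Nppa and Nppb above 0, Corin, Furin and Npr2 below it.

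Both processing enzyme genes were lower in double null hearts. Corin, the serine protease that activates ANP, read 0.89, 0.17, 1.38 and 0.98 in double null hearts, 0.46, 1.59, 1.44 and 1.56 in MuRF1 null MuRF2 het hearts, 2.08, 2.35, 2.40 and 2.37 in MuRF1 het MuRF2 null hearts, and 1.50, 1.99, 1.75 and 1.55 in wild type hearts. Every double null heart lay below every wild type heart, and every MuRF1 het MuRF2 null heart above every wild type heart. On the array of double null 2, the lowest value, the probe was not well above background.

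Relative to wild type, double null hearts had 1.79-fold less Corin, a fall by 0.84 ± 0.25 (limma, adjusted p = 0.0256). Against MuRF1 het MuRF2 null hearts it was lower in double null hearts, by a difference of -1.45 ± 0.25 (adjusted p = 0.00107), and in MuRF1 null MuRF2 het hearts, by a difference of -1.04 ± 0.25 (adjusted p = 0.0232). The difference of 0.60 ± 0.25 between MuRF1 het MuRF2 null and wild type hearts did not pass (adjusted p = 0.234). The 2 arrays with the fewest probes above background, double null 2 and MuRF1 null MuRF2 het 1, gave the 2 lowest Corin ratios, 0.17 and 0.46. With brightness as a covariate the difference of double null hearts was -0.27 from wild type (adjusted p = 0.514) and -0.32 from MuRF1 het MuRF2 null hearts (adjusted p = 0.545), and that of MuRF1 null MuRF2 het from MuRF1 het MuRF2 null hearts was 0.00 (adjusted p = 0.999). Median log2 Cy5 was 6.64 to 6.87 on double null, 6.88 to 7.08 on wild type and 7.13 to 7.17 on MuRF1 het MuRF2 null arrays. These ranges do not overlap, so the covariate cannot cleanly separate brightness from genotype. The part of array brightness in the lower Corin ratios was not tested beyond this fit.

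**Figure D4:**
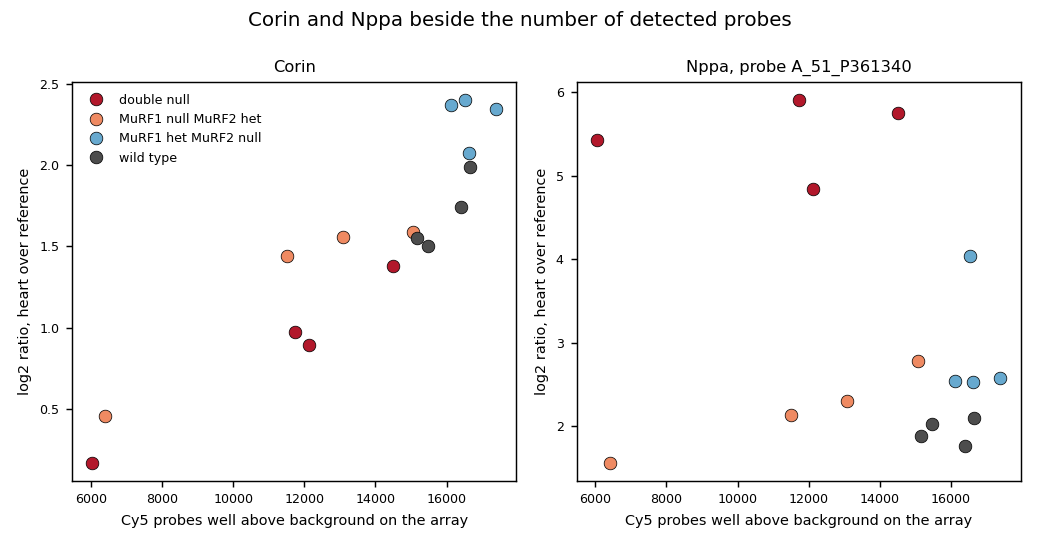
Log2 ratio of Corin (left) and of Nppa by its unsaturated probe (right) against how many probes were well above background in Cy5 on the same array, 1 point per heart, coloured by genotype. Corin is lowest on the arrays with 6037 and 6402 such probes and highest on the MuRF1 het MuRF2 null arrays, with 16129 to 17391. Wild type 2 and 3, with 16664 and 16393 such probes, read 1.99 and 1.75 for Corin. Nppa is at 4.84 to 5.90 on the double null arrays, which have 6037 to 14503 such probes, all fewer than the 15171 to 16664 of the wild type arrays.

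The call for Corin in double null against wild type hearts was lost without double null 2 (difference -0.61, adjusted p = 0.0663), wild type 2 (-0.75, adjusted p = 0.0776) or wild type 3 (-0.83, adjusted p = 0.0628), and held without each of the other 5 arrays. The call of MuRF1 null MuRF2 het against MuRF1 het MuRF2 null hearts was lost without MuRF1 null MuRF2 het 1 or any 1 array of the MuRF1 het MuRF2 null group (adjusted p 0.0508 to 0.0614). Between double null and wild type hearts the Corin difference was -1.22 within slide 1 and -0.47 within slide 3.

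Furin, the proprotein convertase of the secretory pathway, read -0.64, 0.24, 0.02 and -0.27 in double null hearts, 0.11, 0.45, -0.13 and -0.30 in MuRF1 null MuRF2 het hearts, 0.28, 0.09, 0.00 and 0.25 in MuRF1 het MuRF2 null hearts, and 0.62, 0.23, 0.51 and 0.35 in wild type hearts. Its probe was well above background on all 16 arrays. Double null 2 and wild type 2 read 0.24 and 0.23, so the groups met at that value. Relative to wild type, double null hearts had 1.51-fold less Furin, a fall by 0.59 ± 0.18 (adjusted p = 0.0273), and passed in no other comparison. The call was lost with slide as a block (adjusted p = 0.0543) and without double null 1 or 4 or wild type 1 or 3 (adjusted p 0.0637 to 0.0769). It was also lost with brightness as a covariate (-0.55, adjusted p = 0.163), with the deposited ratios (-0.65, adjusted p = 0.0571) and series values (adjusted p = 0.0572), and within slide 1 (-0.63, adjusted p = 0.328), so that 15 of 24 alternatives kept it.

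**Figure D5:**
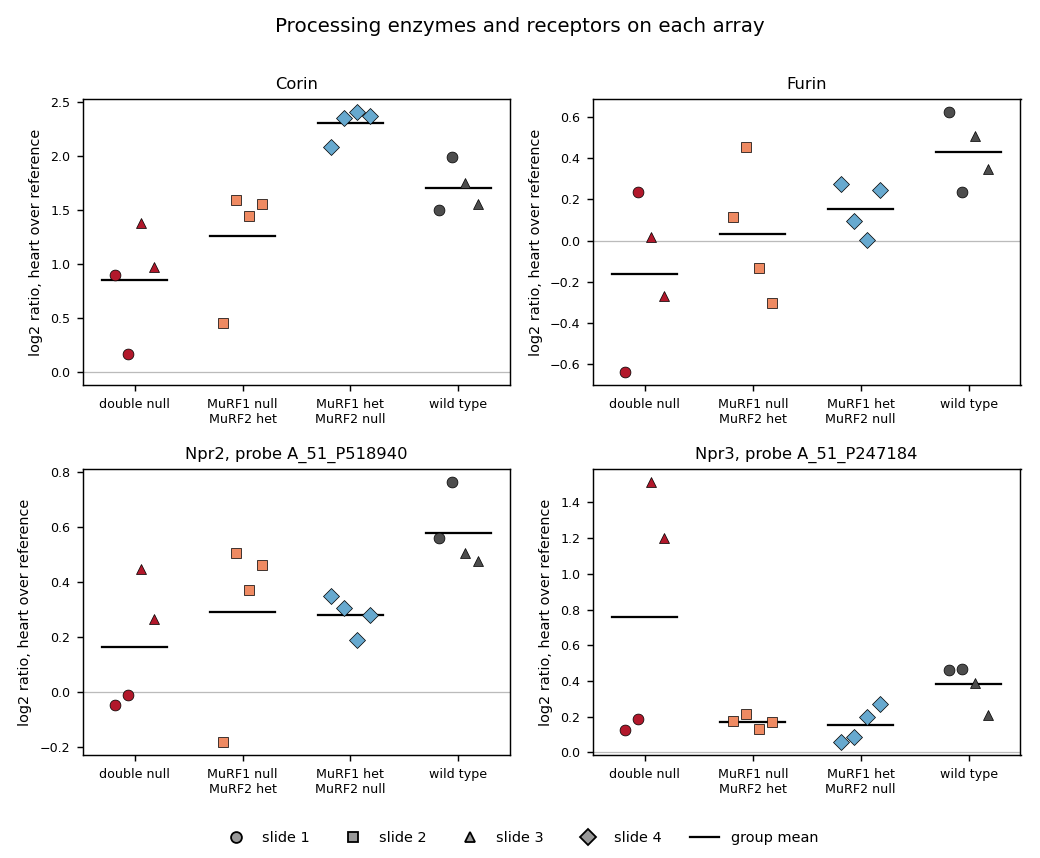
Log2 ratio of heart to reference for Corin, Furin, Npr2 and Npr3 on each array, by genotype, with 1 point per heart, marker shape for the slide and a bar for the group mean; each panel has its own vertical scale. Corin is highest in MuRF1 het MuRF2 null hearts, Npr2 is lower in all double null than in all wild type hearts, and Npr3 is high only in the 2 double null hearts of slide 3.

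Of the receptors, Npr2 was lower in double null hearts, Npr3 differed between slides, and Npr1 could not be measured. The Npr1 probe, on chromosome 3, was well above background on 0 of 16 arrays, with ratios between -0.15 and 0.21, so the receptor of ANP and BNP has no value here. In the channel of the newborn reference that probe was well above background on 1 of 16 arrays. Its sequence is shown beside the Npr2 probe from the same stretch of the related receptor gene on chromosome 4, which was well above background on 10 of 16 arrays. In their best overlap without gaps, of 40 bases, 34 are identical, and capitals mark the 6 that differ.
Npr1 probe A_51_P182693: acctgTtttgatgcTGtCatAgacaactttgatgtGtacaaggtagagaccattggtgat
Npr2 probe A_52_P489373: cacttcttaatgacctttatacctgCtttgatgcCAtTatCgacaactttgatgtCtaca

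Npr2, the receptor of CNP, was covered by 3 probes, 1 of which was above background on no array. Its brightest probe, A_51_P518940, read -0.05, -0.01, 0.44 and 0.27 in double null hearts, -0.18, 0.51, 0.37 and 0.46 in MuRF1 null MuRF2 het hearts, 0.35, 0.30, 0.19 and 0.28 in MuRF1 het MuRF2 null hearts, and 0.56, 0.76, 0.50 and 0.48 in wild type hearts. All double null hearts lay below all wild type hearts, narrowly on slide 3. The difference was -0.41 ± 0.14 (adjusted p = 0.0466), with the probe not well above background on double null 2. The probe shown above, A_52_P489373, was well above background on 1 of 4 double null and 4 of 4 wild type arrays, so that its double null values are mostly background, and its measured means were 0.06 in double null and 0.41 in wild type hearts. Npr2 passed in no other comparison. Of 24 alternatives 8 kept its call. Leaving out any 1 array other than that of double null 3 ended it (adjusted p up to 0.128), as did brightness as a covariate (-0.15, adjusted p = 0.606), and within slide 3 the difference was -0.13.

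Npr3, the clearance receptor, split the double null hearts by slide. Its brightest probe, A_51_P247184, read 0.13 and 0.18 in double null hearts 1 and 2, on slide 1, and 1.51 and 1.20 in double null hearts 3 and 4, on slide 3. The wild type hearts read 0.46 and 0.47 on slide 1 and 0.39 and 0.21 on slide 3, and all 8 hearts of the other 2 groups lay between 0.06 and 0.27. The double null hearts were thus the lowest on slide 1, by -0.31 in the mean (adjusted p = 0.281), and the highest on slide 3, by 1.06 (adjusted p = 0.000244). Over both slides the difference was 0.37 ± 0.23 (adjusted p = 0.241). Of 24 alternatives 20 gave the same result (limma, adjusted p 3.96e-05 to 0.925). Double null hearts differed from MuRF1 null MuRF2 het hearts by 0.58 (adjusted p = 0.388) and from MuRF1 het MuRF2 null hearts by 0.60 (adjusted p = 0.0625). The latter result was the same in 16 of 21 alternatives (limma, adjusted p 5.3e-06 to 0.273). The other 2 Npr3 probes were well above background on 2 of 16 arrays each, and double null 3 gave the highest ratio of all 16 arrays for both, 0.44 and 0.44.

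The steps behind the receptors were read from lists of genes. Beside the counts of each list in double null against wild type hearts, 12% of all genes were lower and 10.3% higher. Of the cGMP makers other than the receptors, the soluble guanylate cyclase subunits Gucy1a1 and Gucy1b1 were the 2 of 4 listed genes that passed the filter. They differed by -0.13 and -0.02 between double null and wild type hearts and passed in none of the 6 comparisons. Of the cGMP effectors, 4 of 5 were tested and 1 was lower: Irag1, also named Mrvi1 and known as the partner of cGMP-dependent protein kinase at calcium stores, fell by 0.44 ± 0.11 (adjusted p = 0.0142). Prkg1, the kinase itself, differed by 0.11 (adjusted p = 0.353). Irag1 was also lower in double null than in MuRF1 het MuRF2 null hearts (-0.39, adjusted p = 0.0201), and Vasp, a substrate of the kinase, was higher in MuRF1 null MuRF2 het than in MuRF1 het MuRF2 null hearts (0.30, adjusted p = 0.0473). For these lists brightness as a covariate and leaving out the 2 dimmest arrays were alternatives chosen after seeing the data. None of these 3 calls held with brightness as a covariate (adjusted p = 0.17, 0.572 and 0.908), and that of Vasp was also lost without the 2 dimmest arrays (0.26, adjusted p = 0.0763).

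Among the phosphodiesterases, which break cGMP or cAMP down, 6 of 9 were tested. Against wild type, 3 fell in double null hearts, 2 fell in MuRF1 null MuRF2 het hearts and 1 rose in MuRF1 het MuRF2 null hearts. The shares of all genes with such calls were 12%, 0.714% and 0.665%. Pde3a, which cGMP inhibits, read 0.33 ± 0.21 in double null hearts, 0.44 ± 0.27 in MuRF1 null MuRF2 het hearts, 1.33 ± 0.17 in MuRF1 het MuRF2 null hearts and 1.11 ± 0.05 in wild type hearts (SD, n = 4 each). It fell by 0.77 ± 0.13 in double null hearts (adjusted p = 0.00112) and by 0.67 ± 0.13 in MuRF1 null MuRF2 het hearts (adjusted p = 0.0299) against wild type. Pde2a, which cGMP activates, fell by 0.61 (adjusted p = 0.00119) and by 0.46 (adjusted p = 0.0452) in the same groups, and Pde1c, activated by calcium and calmodulin, fell by 0.97 in double null hearts (adjusted p = 0.00982). On the 2 dimmest arrays, double null 2 and MuRF1 null MuRF2 het 1, the ratios were the lowest of their groups, at 0.11 and 0.05 for Pde3a, -0.02 and -0.01 for Pde2a, and 0.05 and 0.09 for Pde1c. Without those arrays the calls held except that of Pde2a in MuRF1 null MuRF2 het hearts (-0.37, adjusted p = 0.0529). With brightness as a covariate Pde3a (-0.54, adjusted p = 0.0291) and Pde2a (-0.40, adjusted p = 0.0299) still passed in double null hearts, while Pde1c there (-0.35, adjusted p = 0.214) and both genes in MuRF1 null MuRF2 het hearts (adjusted p = 0.267 and 0.416) did not. Pde1a was the gene that rose in MuRF1 het MuRF2 null hearts, by 0.35 ± 0.08 (adjusted p = 0.0317, and 0.0637 with brightness as a covariate). The median difference of the 6 between double null and wild type hearts was -0.32, beside 0.01 over all genes. Pde5a and Pde9a are the enzymes specific to cGMP: Pde5a was above background on 0 arrays, and Pde9a differed by 0.20 (adjusted p = 0.124).

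Endothelial markers moved with these results. In double null against wild type hearts 8 of 9 endothelial genes were lower, beside 12% of all genes, with a median difference of -0.67. With array brightness as a covariate 4 of the 8 kept their call, and without the 2 dimmest arrays all 8 did. Their mean ratio lay between 0.08 and 0.34 on the double null arrays, between 0.12 and 0.72 on MuRF1 null MuRF2 het, between 0.67 and 1.01 on MuRF1 het MuRF2 null and between 0.84 and 0.91 on wild type arrays. The part of endothelial cells in the lower ratios of Npr2 and the phosphodiesterases was not tested. Each of the 9 was well above background on at least 12 arrays. Of the cardiomyocyte markers 2 of 7 were lower, Ryr2 (-0.41, adjusted p = 0.03) and Ckm (-0.89, adjusted p = 0.0024). Of the other cell types listed, 1 of 6 fibroblast genes (Tcf21) and 1 of 7 macrophage genes (Ptprc) were higher, and none of 3 adipocyte, 2 red cell and 2 newborn tissue genes passed.

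Of 5 genes listed for breakdown, activation or decoy of the peptides, 4 were tested. In double null hearts Dpp4, a peptidase that trims BNP, rose by 0.40 ± 0.13 (adjusted p = 0.0414) and Pcsk6, the convertase that activates corin, fell by 0.57 ± 0.13 (adjusted p = 0.00773). Mme, which encodes neprilysin, the main enzyme that degrades ANP, differed by -0.12 (adjusted p = 0.329), and the insulin-degrading enzyme gene Ide by -0.30 (adjusted p = 0.0699). Against MuRF1 het MuRF2 null hearts the same 2 genes passed, Dpp4 by 0.58 (adjusted p = 0.00554) and Pcsk6 by -0.69 (adjusted p = 0.00193). With brightness as a covariate neither gene passed in either comparison, with 0.10 for Dpp4 (adjusted p = 0.694) and -0.44 for Pcsk6 (adjusted p = 0.121) against wild type, and without the 2 dimmest arrays Dpp4 did not pass against wild type (0.29, adjusted p = 0.0619).

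Transcription regulators of Nppa and Nppb went down or did not pass. Of 11 listed, 10 were tested. In double null against wild type hearts 4 were lower and 0 higher, beside 12% and 10.3% of all genes. Gata6 fell by 1.03 ± 0.15 (adjusted p = 0.000577), Tbx5 by 0.94 ± 0.15 (adjusted p = 0.000886), Myocd, the coactivator of SRF, by 0.93 ± 0.21 (adjusted p = 0.00758) and Hand2 by 0.35 ± 0.11 (adjusted p = 0.036). For each of the 4, all double null hearts lay below all wild type hearts. The 2 dimmest arrays, double null 2 and MuRF1 null MuRF2 het 1, read lowest of their groups, at -0.19 and 0.18 for Gata6, 0.04 and 0.28 for Tbx5, 0.23 and 0.15 for Myocd, and 0.06 and 0.18 for Hand2. Without those arrays all 4 kept their call. With brightness as a covariate Gata6 (-0.69, adjusted p = 0.0101) and Tbx5 (-0.56, adjusted p = 0.0125) kept it, Myocd (-0.36, adjusted p = 0.15) and Hand2 (-0.17, adjusted p = 0.475) lost it, and Nkx2-5 passed as higher (0.56, adjusted p = 0.0495). Nkx2-5 differed by -0.06, Mef2c by -0.04, Srf by -0.19 and the repressor gene Rest by 0.05, none with an adjusted p under 0.31. Gata4 was above background on 3 arrays and was not tested. No regulator passed in MuRF1 null MuRF2 het hearts or in MuRF1 het MuRF2 null hearts against wild type, while Myocd was lower than in MuRF1 het MuRF2 null hearts both in double null hearts (-1.59, adjusted p = 0.000214) and in MuRF1 null MuRF2 het hearts (-1.56, adjusted p = 0.00182). With brightness as a covariate these 2 differences were -0.46 and -0.52 and did not pass (adjusted p = 0.176 and 0.153).

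The 250 bases before the start of Nppa and Nppb are shown because these are the 2 members that rose, and their regulators are listed above. Both come from the RefSeq promoter table on GRCm38.p6, plus strand: Nppa at chr4:148000472-148000721 and Nppb at chr4:147985650-147985899. Capitals mark matches on either strand to 6 short motifs, chosen after the sequences were seen. For the GATA family of zinc finger factors the letters searched were GATAA. The homeobox factor NKX2-5 was represented by AAGTG. The element of the TEAD family was searched as CATTCC. For the T-box family, to which TBX5 belongs, the letters were TCACACC. The dimers of FOS and JUN were represented by TGANTCA. The box that binds the basal transcription machinery was searched as TATAAA.
Nppa promoter: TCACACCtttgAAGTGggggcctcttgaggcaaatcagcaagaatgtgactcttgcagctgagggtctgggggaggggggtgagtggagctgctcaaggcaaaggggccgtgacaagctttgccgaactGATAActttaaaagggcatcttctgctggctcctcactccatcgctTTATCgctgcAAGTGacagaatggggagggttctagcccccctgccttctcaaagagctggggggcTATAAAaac
Nppb promoter: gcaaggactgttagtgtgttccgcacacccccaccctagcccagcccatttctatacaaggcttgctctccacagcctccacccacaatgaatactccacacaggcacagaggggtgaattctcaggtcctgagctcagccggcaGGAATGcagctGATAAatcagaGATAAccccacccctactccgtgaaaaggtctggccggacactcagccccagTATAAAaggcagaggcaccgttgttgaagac

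Each window held 2 matches to GATAA, which 22.6% of 32851 promoter windows of this length hold at least once and 4.28% at least 2 times. Each also held 1 TATAAA, which 12.4% of windows hold. Nppa had 2 matches to AAGTG (40.7% of windows have 1 or more) and 1 to TCACACC (3.33%). Nppb had 1 to CATTCC (12.6%), on the other strand. TGANTCA matched neither, and 6.75% of windows hold it. No 2 matches overlapped, and a match says only that the letters are there.

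Nppa and Nppb lie next to each other on chromosome 4. Within 250 kb of their starts the RefSeq table places 23 other genes, 11 of which were tested. In double null against wild type hearts 0 of the 11 were higher, beside 10.3% of all genes, and 4 were lower, beside 12%. With 11 genes these counts do not tell whether the region changed. The 4 were Zfp933 (-0.51, adjusted p = 0.00465), Mfn2, a mitochondrial fusion gene (-1.03, adjusted p = 0.0192), 2510039O18Rik, the next gene before Nppb (-0.55, adjusted p = 0.0208), and Plod1, a collagen lysyl hydroxylase (-0.40, adjusted p = 0.0495). The median difference of the 11 was 0.01. Against MuRF1 het MuRF2 null hearts 1 of the 11 was higher in double null hearts, Fbxo6 (0.57, adjusted p = 0.0228), and 3 were lower. Of all genes 13.7% were higher and 12.7% lower there. Clcn6, the next gene after Nppa, was not tested. Trim63 lies on the same chromosome, and the part of that linkage in the values was not tested.

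Some markers of the atria were higher in double null than in wild type hearts. Between double null and MuRF1 null MuRF2 het hearts 0 of 4 passed, beside 0.349% of all genes. With so few genes passing there, that count does not tell whether atrial genes differed. Of 6 atrial genes 4 were tested. In double null against wild type hearts 2 passed as higher, beside 10.3% of all genes. Myl7 rose by 0.77 ± 0.27 (adjusted p = 0.0474) and Myl4 by 0.74 ± 0.21 (adjusted p = 0.0206), both atrial myosin light chains. Sln differed by 1.12 ± 0.49 (adjusted p = 0.107) and Stard10 by 0.27 (adjusted p = 0.466). The mean of the 4 lay between -2.25 and -0.61 on double null arrays, between -2.27 and -0.99 on MuRF1 null MuRF2 het, between -2.35 and -2.08 on MuRF1 het MuRF2 null and between -2.60 and -2.16 on wild type arrays. Averaged over the arrays of a group it was -1.67 in double null and -1.74 in MuRF1 null MuRF2 het hearts. The mean was highest on the 2 dimmest arrays, at -0.61 on double null 2 and -0.99 on MuRF1 null MuRF2 het 1, and those 2 arrays also had the highest means of the adipocyte, fibroblast and newborn tissue lists. Without them the difference between double null and wild type hearts was 0.48 for Myl7 (adjusted p = 0.0106) and 0.55 for Myl4 (adjusted p = 0.00148), and with brightness as a covariate it was 0.10 and 0.18, neither with a call (adjusted p = 0.826 and 0.489). Sln passed without the 2 arrays (0.47, adjusted p = 0.0484), and with the covariate Myl7, Myl4 and Sln were higher in MuRF1 het MuRF2 null than in wild type hearts (0.73, 0.80 and 1.51, adjusted p = 0.0189, 0.00272 and 0.0147). This was not particular to atrial genes. In that fit and comparison 4 of 6 fibroblast, 2 of 3 adipocyte and 2 of 2 newborn tissue genes were higher too. It called 1994 genes, against 247 without the covariate. Bmp10, a defining atrial gene, was above background on 0 of 16 arrays and Dkk3 on 3. Of the ventricular markers Myl2, Myl3 and Irx4 differed by 0.51, 0.18 and -0.45 (adjusted p = 0.207, 0.705 and 0.0817). The part of atrial tissue in the rise of Nppa was not tested.

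The genes whose ratios went most like those of Nppa over the 16 arrays, by Pearson correlation with A_52_P580582, which is saturated on double null 3, were Acta1 (0.94), Smyd2 (0.88), Park7 (0.87), Masp1 (0.85) and Myh7 (0.83). Acta1, skeletal alpha actin, and Myh7, the slow myosin heavy chain, are the 2 of them known as fetal genes of the heart. Over the 12 hearts outside the double null group these 2 kept correlations of 0.83 and 0.77, and the other 3 had 0.35 to 0.45. By the unsaturated probe Nppb (0.92), Nuak1 (0.90), Myh7 (0.89), Acta1 (0.89) and Gyg (0.88) came first. Over the 12 hearts these had 0.74, 0.44, 0.69, 0.65 and 0.54. Smyd2, Park7 and Masp1 had 0.85, 0.80 and 0.78 by that probe, but 0.14 to 0.17 over the 12 hearts. Acta1 read -1.24 ± 0.77 in double null and -3.51 ± 0.15 in wild type hearts (SD, n = 4 each), a rise of 2.26 ± 0.28 (adjusted p = 0.000163). Myh7 read 2.36 ± 1.87 in double null and -2.07 ± 0.31 in wild type hearts, a rise of 4.43 ± 0.72 (adjusted p = 0.000906). For Nppb the genes were Tmem210 (0.88), Slain2 (0.85), Otulin (0.85), Abcb4 (0.85) and Iah1 (0.85), and by these probes no gene was among the first 5 for both peptides. Across so many genes some correlations of this size arise from shared groups and arrays alone, and they are given as descriptions.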

How the data were processed

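Agilent 2-colour arrays held heart RNA in Cy5 and the pooled newborn reference in Cy3, without dye swap; the label protocol names only Cy3-CTP. The deposited intensity columns came, per the file headers, from Agilent Feature Extraction 9.1.3.1 on 12 arrays and 9.5.3.1 on the 4 arrays of MuRF1 het MuRF2 null hearts. As alternatives served the deposited log10 ratios of the authors and the deposited log2 series values (71.41% within 0.01 of those ratios centred on their medians; column medians -0.0279 to 0.0238).

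Mean and background intensities were corrected (normexp, offset 50) and loess-normalized in limma 3.58.1 (R 4.3.3). Spots of a probe were averaged. Probes well above background in Cy5 on at least 4 of 16 arrays were kept (16810 of 41174), and the brightest probe stood for each of 12331 genes. Genotypes were compared in 6 limma contrasts, Benjamini-Hochberg adjusted over all genes, threshold 0.05; values after ± are SEs unless marked SD. The script was tested on simulated data. Labels call the replicates biological.

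Members and lists were chosen with earlier results of these data known. Genes named beyond members and lists were the 5 with the highest correlation to Nppa or Nppb and the neighbours within 250 kb. Array number and signal over background limit precision.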

Additional observations from a re-analysis of the deposited data

Results flagged for a closer look

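Of 55 groups of 4 arrays checked for 1 array that stands apart, 6 had one, and chance flags about 1 in 20. Nppa in MuRF1 het MuRF2 null 3 stood at 4.03 by probe A_52_P580582, with the other 3 hearts at 2.85 to 2.94, and at 4.04 by probe A_51_P361340, with the others at 2.53 to 2.58. Corin in MuRF1 null MuRF2 het 1, a dim array, stood at 0.46, below 1.44 to 1.59 in the others of its group. Corin in MuRF1 het MuRF2 null 1 stood at 2.08, below 2.35 to 2.40. The Npr3 probe A_51_P356883 stood at 0.44 in double null 3, with the others at -0.13 to -0.07. The Npr1 probe stood at -0.15 in MuRF1 het MuRF2 null 2, with the others at -0.02 to 0.00, all below background.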

How the results depend on the processing

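Differences are log2, and the cause of a change was not tested. Against wild type, Nppa in double null hearts kept its call in every alternative except slide 1 alone, and Nppb except slide 1 alone and median centring. Leaving out 1 array at a time gave, for double null minus wild type, Nppa 2.43 to 3.17, Nppb 1.49 to 1.94, Npr2 -0.51 to -0.34, Corin -1.02 to -0.61, Furin -0.72 to -0.43 and 1555 to 3611 genes called. For double null minus MuRF1 null MuRF2 het it gave Nppa 1.94 to 2.68, Nppb 1.57 to 2.11 and 3 to 360 genes. For double null minus MuRF1 het MuRF2 null it gave Nppa 1.55 to 2.30, Nppb 1.38 to 1.76, Corin -1.62 to -1.22 and 2181 to 3785 genes. For MuRF1 null MuRF2 het minus MuRF1 het MuRF2 null it gave Corin -1.15 to -0.77, Npr2 -0.064 to 0.17, Npr3 -0.013 to 0.058 and 221 to 2107 genes. For MuRF1 null MuRF2 het minus wild type it gave Nppb -0.39 to 0.17 and 23 to 1509 genes, and for MuRF1 het MuRF2 null minus wild type Nppb -0.024 to 0.43 and 69 to 185 genes.
Genes called in the order double null minus wild type, MuRF1 null MuRF2 het minus wild type, MuRF1 het MuRF2 null minus wild type, double null minus MuRF1 null MuRF2 het, double null minus MuRF1 het MuRF2 null, and MuRF1 null MuRF2 het minus MuRF1 het MuRF2 null were 2750, 127, 247, 43, 3254 and 1052. Adding Cy5 brightness to the model gave 713, 16, 1994, 103, 506 and 21. They were 6163, 2112, 2944, 1257, 6402 and 3134 with array weights. With median centring they were 6894 (18 higher, 6876 lower, against 1265 and 1485), 7379 (14 and 7365, against 39 and 88), 2552 (19 and 2533, against 82 and 165), 0 (184 with an unadjusted p under 0.05 in limma), 872 (375 and 497, against 1692 and 1562) and 353 (230 and 123, against 566 and 486). MuRF1 null MuRF2 het minus wild type gave 193 with every probe, 84 with the strict filter (12 arrays) and 273 (57 higher, 216 lower) with the Cy5 channel alone, which gave 975 for MuRF1 het MuRF2 null minus wild type and 1884 between the last 2 groups. Double null minus MuRF1 null MuRF2 het gave 14 without a filter and 74 with scaling between arrays. In the same order but without the comparisons of double null with wild type and with MuRF1 het MuRF2 null, Feature Extraction ratios gave 22, 23, 87 and 290, and the series values 22, 23, 87 and 288. Without the 2 dimmest arrays, chosen after seeing the data, 1050 genes were called in MuRF1 het MuRF2 null minus wild type and 481 in double null minus MuRF1 null MuRF2 het, and Nppb in MuRF1 null MuRF2 het minus wild type was 0.17.
Brightness as a covariate gave, for double null minus wild type, Corin -0.27, Furin -0.55 and Npr2 -0.15, all without a call. It gave Nppa 1.21 and Corin -0.32, both calls lost, and Npr2 0.40 for double null minus MuRF1 het MuRF2 null, Corin 0.051 and Nppb 0.20 for MuRF1 null MuRF2 het minus wild type, Nppb -0.15 for MuRF1 het MuRF2 null minus wild type, and Corin 0.00 (0.000683) and Nppb 0.35 for MuRF1 null MuRF2 het minus MuRF1 het MuRF2 null. Median centring gave Nppb 0.93 (call lost) and Npr3 -0.029 (double null minus wild type), Nppa 2.62 and Nppb 1.77 (both calls lost, double null minus MuRF1 null MuRF2 het), Nppa 1.42 and Nppb 1.14 (both calls lost, double null minus MuRF1 het MuRF2 null), Nppa -0.73 (MuRF1 null MuRF2 het minus wild type), Nppb -0.21 (MuRF1 het MuRF2 null minus wild type), and Npr2 -0.073 and Npr3 -0.061 (MuRF1 null MuRF2 het minus MuRF1 het MuRF2 null). The Cy5 channel alone gave Nppb -0.037 and Npr2 0.13 for MuRF1 het MuRF2 null minus wild type and Npr2 -0.37 for MuRF1 null MuRF2 het minus MuRF1 het MuRF2 null.
Feature Extraction ratios and the series values both gave, for double null minus wild type, Corin -1.31, Furin -0.65 and Npr2 -0.87, all without a call (adjusted p 0.176, 0.0571 and 0.286), and for double null minus MuRF1 null MuRF2 het Npr2 0.017 and Nppb 1.01 (call lost). Both gave Corin -1.83 (call lost) for double null minus MuRF1 het MuRF2 null, Nppb 0.49 for MuRF1 null MuRF2 het minus wild type and Nppb -0.0010 for MuRF1 het MuRF2 null minus wild type. For MuRF1 null MuRF2 het minus MuRF1 het MuRF2 null both gave Corin -0.57 (call lost), Furin 0.026, Nppb 0.49, Npr2 -0.57 and Npr3 -0.088. Scaling between arrays ended 2 calls, Nppa 2.72 (double null minus MuRF1 null MuRF2 het), and Npr2 -0.39 (double null minus wild type), and gave Nppb 0.13 (MuRF1 null MuRF2 het minus wild type) and Npr2 -0.0066 (MuRF1 null MuRF2 het minus MuRF1 het MuRF2 null). No filter left Nppb 1.88 (adjusted p = 0.0626, double null minus MuRF1 null MuRF2 het) and Npr2 -0.41 (adjusted p = 0.0747, double null minus wild type). Slide as a block ended the calls of Furin (-0.59) and Npr2 (-0.41). Slide 1 alone gave Nppa 3.20, Nppb 1.10, Npr2 -0.69, Npr3 -0.31, Corin -1.22, Furin -0.63, none with a call, and 0 genes in limma (2628 with an unadjusted p under 0.05), and slide 3 alone Npr2 -0.13 (call lost).
Same-numbered arrays did not deviate together in the median (correlation -0.03 over 24 pairs, -0.61 to 0.36). Arrays of unlike number had a median of 0.02 over 72 pairs (-0.69 to 0.79). No pairing by number was seen, but correlations that vary so widely cannot exclude one. With the replicate block Nppb stayed at 1.88 (adjusted p = 0.0641, double null minus MuRF1 null MuRF2 het) and Npr2 at -0.41 (adjusted p = 0.0546, double null minus wild type), and 66, 152 and 16 genes were called in MuRF1 null MuRF2 het minus wild type, MuRF1 het MuRF2 null minus wild type and double null minus MuRF1 null MuRF2 het.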
